A study of Hipposideros armiger and Mus musculus with 20 samples.

Results

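Dcn, Dpt, Efemp1, Mgp, Gpc3 and Pi16, 6 genes that mark the fibroblasts and fat cell progenitors of adipose tissue, were followed through fat of mice and bats in the cold. They were taken by symbol from a deposited expression table of 14871 genes, and all 6 genes were found there. More of them passed the test between depots than between temperatures. Between brown and subcutaneous fat, 12.9% to 48% of all genes also passed as lower. Brown fat held less of most of them than subcutaneous fat in both species, and among bat depots abdominal fat held the most Mgp. In the cold, Dcn, Dpt and Pi16 passed as lower in mouse brown fat, where 10.2% of all genes did. These 3 calls need all 4 libraries compared. In the main fit none of the 6 passed in any other depot, where 1.08% to 33.2% of all genes passed in either direction. A fall in mouse brown fat alone was not shown.

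The 20 libraries come from ICR mice and from wild type great roundleaf bats (Hipposideros armiger), an Asian cave bat. Animals were kept for 7 days at 10 °C (cold) or at 30 °C (warm). The mouse groups are interscapular brown fat (iBAT) in the cold and warm, and subcutaneous white fat (sWAT) in the cold and warm. The bat groups are iBAT, intra-abdominal white fat (aWAT) and sWAT, each in the cold and warm. Every group holds 2 libraries, of which 1 is from a female and 1 from a male. The labels do not say whether depots came from the same animals, nor the ages, and no group carries a mutation or a drug. Levels are given as FPKM, a read count divided by transcript length and library size.

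Between the fat cells and vessels of adipose tissue lie fibroblast-like cells that express the receptor Pdgfra, lay down the matrix and include the progenitors of new fat cells. In mouse fat a Pi16 and Dpp4 expressing layer of such cells lies in the connective tissue around the lobules and can give rise to more committed progenitors. The genes described here encode secreted matrix proteins (Dcn, Dpt, Efemp1, Mgp), a cell surface proteoglycan that holds signalling ligands (Gpc3) and a secreted protein of the CAP domain family (Pi16). In bulk tissue, fewer such cells and less RNA per cell cannot be told apart.

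Summed FPKM lay between 263338 and 305098 for mouse libraries and between 294103 and 358510 for bat libraries, and the commonest ratios of low values between libraries placed depth within 0.95 to 1.11 times that of the first mouse library and 0.624 to 1.08 times that of the first bat library. Bat reads were assigned to mouse gene identifiers, and the housekeeping gene Actb had a median of 0 FPKM in bat against 164 FPKM in mouse libraries, so levels are not compared between species. Ucp1, the uncoupling protein of brown fat, was at 49.9 FPKM or more in all iBAT libraries and at 3.18 FPKM or less in all warm white fat libraries of both species. In mouse, the Y-linked Uty was above 0 in 0 of 4 female and 4 of 4 male libraries, and its row did not separate the sexes in bat (4 of 6 female and 2 of 6 male libraries above 0). Some libraries stood apart in markers of other cells. The 3 epithelial genes in the table summed to 47.5 and 98.0 FPKM in female mouse sWAT (cold and warm) against 0.107 and 1.52 FPKM in male sWAT. The 3 T lymphocyte genes summed to 55.5 FPKM in cold female, 166 FPKM in warm female and 177 FPKM in warm male mouse sWAT, and to 1.21 FPKM in the cold male library. Skeletal muscle genes, 6 in the table, summed to 2.33 and 588 FPKM in cold against 1280 and 1000 FPKM in warm mouse iBAT (female and male), and to 1090 FPKM in cold male mouse sWAT against 7.86 to 23.7 FPKM in the other mouse sWAT libraries.

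The fibroblast label was set against other genes of these cells. Of 33 further fibroblast and progenitor genes, 30 were in the table. Their summed FPKM was 440 and 411 in cold and 1140 and 1290 in warm mouse iBAT. In mouse sWAT the sums were 3530 and 3730 in cold and 3320 and 5400 in warm libraries. The actin-severing Gsn gave most of each sum. Gsn was at 245 and 214 FPKM in cold and 773 and 1030 FPKM in warm mouse iBAT. In mouse sWAT it was at 2080 and 2450 FPKM in cold and 1850 and 4250 FPKM in warm libraries. The sums therefore do not show how the other genes of the list differed. Pdgfra itself, the receptor that defines these cells in mouse, was at 2.00 and 2.30 FPKM in cold and 4.24 and 4.15 FPKM in warm mouse iBAT, and at 14.3 and 10.6 FPKM in cold and 17.2 and 21.2 FPKM in warm mouse sWAT. In bat libraries Pdgfra was low throughout, at 0.239 to 3.33 FPKM.

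On the mouse genome (GRCm38, GENCODE M21) the genes lie on different chromosomes. Dcn (ENSMUSG00000019929) lies on the forward strand of chromosome 10, from 97479609 to 97518143. Mgp (ENSMUSG00000030218) lies on the reverse strand of chromosome 6, from 136872435 to 136875823, and is the shortest, with 4 exons and a coding length of 312 bases. Gpc3 (ENSMUSG00000055653) spans X, from 52272426 to 52613950, on the reverse strand. Dpt (ENSMUSG00000026574), Efemp1 (ENSMUSG00000020467) and Pi16 (ENSMUSG00000024011) lie on chromosomes 1, 11 and 17. The genes that the annotation places across Dpt, Gpc3 and Pi16 are antisense or microRNA genes without a row in the table, and no gene overlaps Dcn, Efemp1 or Mgp. The first 60 coding bases of Dcn-201, Mgp-201 and Gpc3-201, transcripts of Dcn, Mgp and Gpc3, are shown with the start codon in capitals:
Dcn: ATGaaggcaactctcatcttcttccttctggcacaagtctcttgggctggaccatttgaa
Mgp: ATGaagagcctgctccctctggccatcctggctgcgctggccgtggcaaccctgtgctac
Gpc3: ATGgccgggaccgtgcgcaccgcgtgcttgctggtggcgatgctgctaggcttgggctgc
These are mouse sequences, and the bat sequences behind the bat values are not used here.

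Dcn encodes decorin, a small leucine-rich proteoglycan that coats collagen fibrils and binds TGF-beta. In mouse it was at 37.0 and 40.4 FPKM in cold iBAT (female and male, the order used throughout), 128 and 139.8 FPKM in warm iBAT, 434 and 284 FPKM in cold sWAT and 515 and 449 FPKM in warm sWAT. The 4 mouse groups did not overlap, and cold iBAT was the lowest. In bat it was at 192 and 208 FPKM in cold iBAT, 133 and 159 FPKM in warm iBAT, 296 and 407 FPKM in cold aWAT, 468 and 491 FPKM in warm aWAT, 1315 and 1047 FPKM in cold sWAT and 854 and 857 FPKM in warm sWAT. The 6 bat groups did not overlap either, but cold iBAT stood above warm iBAT there.

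Dpt encodes dermatopontin, a small matrix protein that binds decorin and promotes collagen fibril formation. Mouse levels were 22.7 and 19.7 FPKM in cold iBAT, 47.4 and 59.8 FPKM in warm iBAT, 375 and 411 FPKM in cold sWAT and 309 and 438 FPKM in warm sWAT. The iBAT groups did not overlap, and cold sWAT lay within the range of warm sWAT. Bat levels were 85.25 and 118 FPKM in cold iBAT, 103 and 208 FPKM in warm iBAT, 212 and 514 FPKM in cold aWAT, 608 and 1250 FPKM in warm aWAT, 1527 and 1737 FPKM in cold sWAT and 1995 and 2697 FPKM in warm sWAT. Every bat sWAT library was above every aWAT library and every aWAT library above every iBAT library.

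Efemp1 encodes fibulin-3, a glycoprotein of basement membranes and elastic fibres. It had 3.61 and 2.08 FPKM in cold and 16.2 and 8.88 FPKM in warm mouse iBAT, and 97.05 and 38.3 FPKM in cold and 75.2 and 71.2 FPKM in warm mouse sWAT. Cold iBAT was lowest, and the sWAT groups overlapped. Bat iBAT had 41.6 and 37.6 FPKM in the cold and 12.8 and 16.7 FPKM warm, bat aWAT 43.6 and 149.9 FPKM in the cold and 121 and 186 FPKM warm, and bat sWAT 166 and 252 FPKM in the cold and 101 and 194 FPKM warm. The white depots of bat overlapped, and all their libraries exceeded all bat iBAT libraries. The bat row is uncertain: the row of D830030K20Rik followed it at 0.608 to 0.730 times its level in all 12 bat libraries, but was at most 0.344 FPKM in mouse, and whether the same bat reads were counted in both rows was not tested.

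Mgp encodes matrix Gla protein, a vitamin K-dependent protein that keeps vessel walls and cartilage from calcifying. It had 33.4 and 19.5 FPKM in cold and 55.4 and 25.0 FPKM in warm mouse iBAT, and 72.05 and 28.55 FPKM in cold and 163 and 23.3 FPKM in warm mouse sWAT. All 4 mouse groups overlapped, and the female library was the higher in each. In bat, aWAT had 69.05 and 116 FPKM in the cold and 140.2 and 157 FPKM warm, against 8.20 and 19.5 FPKM in cold and 4.81 and 5.14 FPKM in warm sWAT. Bat iBAT had 7.105 and 3.81 FPKM in the cold and 5.515 and 13.7 FPKM warm. All aWAT libraries were above all others, and the iBAT and sWAT groups overlapped in part.

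Gpc3 encodes glypican-3, a heparan sulfate proteoglycan anchored to the cell surface, which binds hedgehog ligands and restrains their signalling. Mouse iBAT had 3.65 and 2.545 FPKM in the cold and 12.4 and 8.10 FPKM warm, and mouse sWAT had 29.0 and 8.545 FPKM in the cold and 40.6 and 8.16 FPKM warm. The male sWAT libraries reached the level of warm iBAT, and the female sWAT libraries were above it. Bat iBAT had 5.24 and 7.38 FPKM in the cold and 2.77 and 8.43 FPKM warm, bat aWAT 19.8 and 30.7 FPKM in the cold and 42.5 and 120.5 FPKM warm, and bat sWAT 179 and 211 FPKM in the cold and 193 and 390.1 FPKM warm. Over the 12 bat libraries the highest was 141 times the lowest, the widest range of the 6 genes, and the 3 bat depots did not overlap.

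Pi16 encodes peptidase inhibitor 16. Mouse iBAT had 4.32 and 3.37 FPKM in the cold and 10.5 and 11.1 FPKM warm, and mouse sWAT 59.8 and 33.75 FPKM in the cold and 58.4 and 49.1 FPKM warm. Bat iBAT had 32.8 and 50.9 FPKM in the cold and 30.7 and 31.6 FPKM warm, bat aWAT 63.8 and 134 FPKM in the cold and 120.3 and 137 FPKM warm, and bat sWAT 298 and 299 FPKM in the cold and 238 and 192 FPKM warm. Depots did not overlap in either species, and the cold and warm libraries overlapped in mouse sWAT and bat aWAT.

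**Figure D1:**
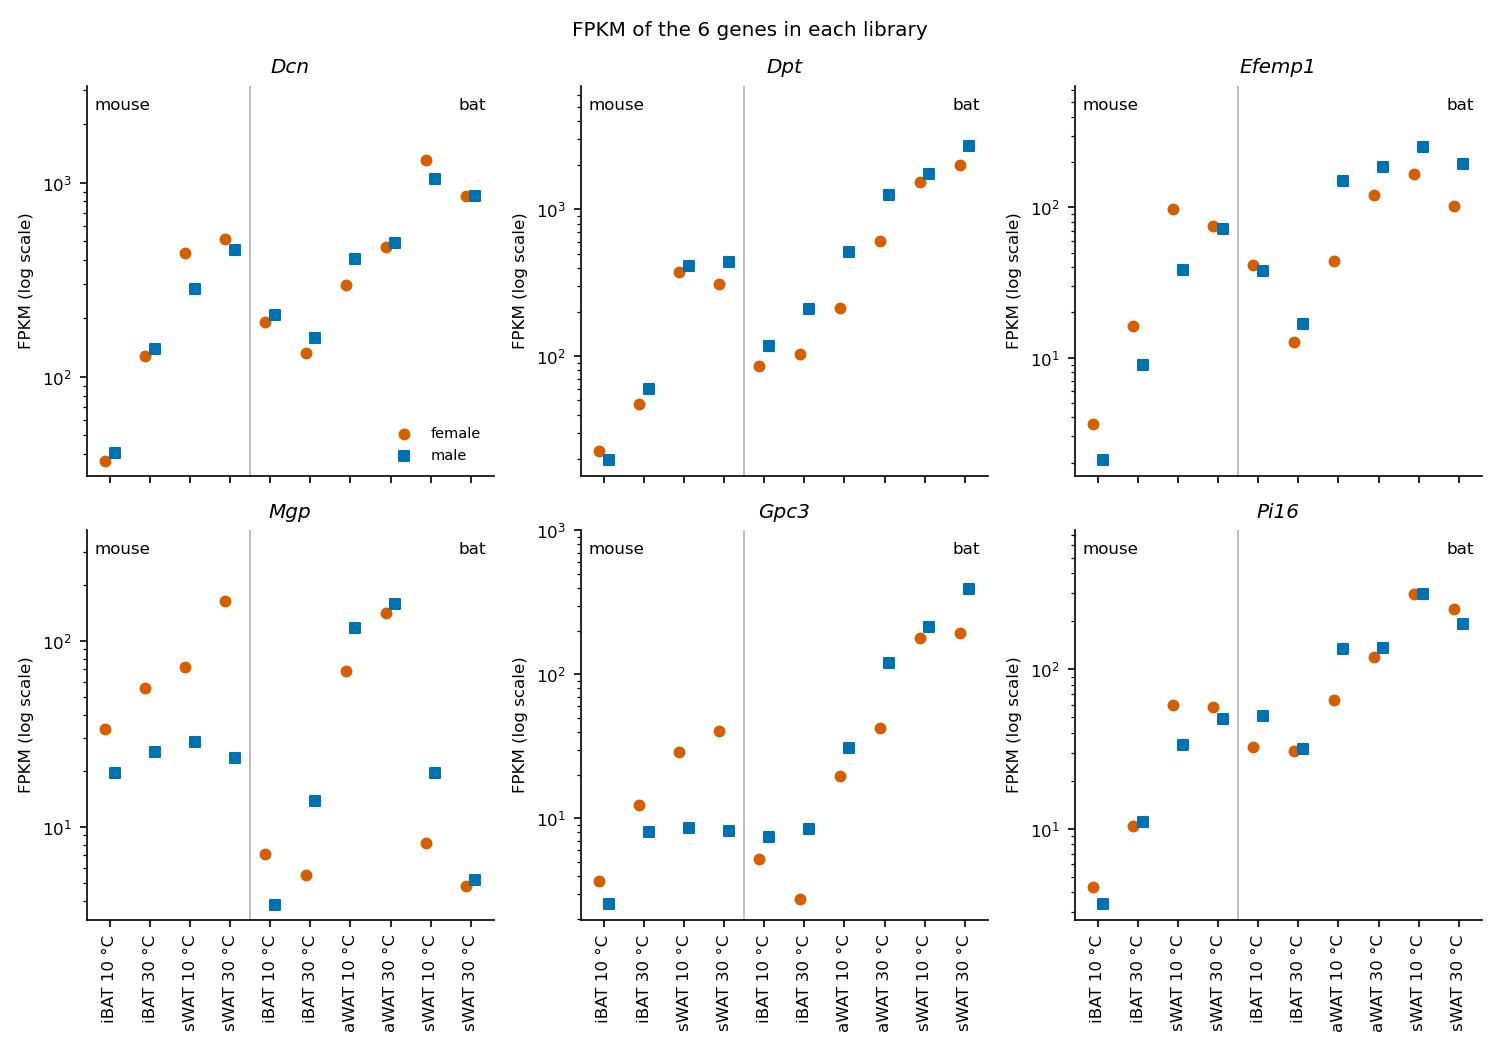
FPKM on a log scale of each of the 6 genes (panels) in each library, with mouse groups left and bat groups right of the grey line; circles are female and squares male libraries, 1 of each per group. Dcn reached 1315 FPKM in bat sWAT and 37.0 FPKM in cold mouse iBAT, and Mgp was above 69 FPKM in bat only in the 4 aWAT libraries.

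Cold against warm was tested in each depot with limma on log2(FPKM + 1), and p-values were adjusted by the Benjamini-Hochberg method over all genes kept in the species (10689 in mouse, 11025 in bat), with a threshold of 0.05. Changes below are log2 changes less the median change of all genes in the comparison, with the standard error (SE). The p-values, here and for list genes, test each change before that median is taken off, so a call does not show a difference from the median gene. In mouse iBAT, where all genes moved by a median of −0.30, Dcn fell by 1.47 ± 0.22 (limma adjusted p = 0.0118), Dpt by 1.00 ± 0.22 (adjusted p = 0.0215) and Pi16 by 0.99 ± 0.28 (adjusted p = 0.0358). Efemp1 had a value of −1.49 ± 0.47, with a larger SE, and did not pass (adjusted p = 0.0551). Gpc3 (−1.15 ± 0.79, adjusted p = 0.251) and Mgp (−0.23 ± 0.93, adjusted p = 0.734) did not pass. Thus 3 of 6 genes were called lower, where 10.2% of all genes tested were called lower, and the median of the 6 changes was −1.07. The 95% intervals of the 3 changes, less the median, were −2.00 to −0.93 for Dcn, −1.53 to −0.47 for Dpt and −1.66 to −0.32 for Pi16. The fall of Dcn to 0.295 times the warm level, on the FPKM + 1 scale, was alike in both sexes.

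These 3 calls need all 4 libraries. Leaving out any 1 of the iBAT libraries in turn, cold or warm and female or male, kept the changes between −1.59 and −1.36 for Dcn, −1.22 and −0.79 for Dpt and −1.11 and −0.88 for Pi16, but the adjusted p rose to between 0.0889 and 0.192, and 1 or 2 genes of all were then called in place of 1369. With the libraries rescaled by median ratios, which turned the 281 higher and 1088 lower calls of all genes into 626 higher and 356 lower, Dcn and Pi16 kept their calls and Dpt did not (adjusted p = 0.0892). Markers of other cells were also lower in cold mouse iBAT. The 8 endothelial genes summed to 160 and 148 FPKM in cold against 266 and 245 FPKM in warm iBAT, and 3 of 8 were called lower, led by Cldn5 (−1.72 ± 0.30). The 8 macrophage genes summed to 32.3 and 33.2 FPKM in cold against 59.9 and 53.7 FPKM in warm iBAT, and 3 of 8 were called lower, led by Csf1r (−0.70 ± 0.17). With median-ratio scaling 1 gene of each list was lower. The part of these cells and of skeletal muscle, whose genes differ between these libraries as given above, was not tested. Muscle sums were 2.33 FPKM cold and 1280 FPKM warm in females, and 588 FPKM cold and 1000 FPKM warm in males. With 1 library of each sex per group, how Dcn goes with them cannot be told.

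Related genes in mouse iBAT are set beside the 10.2% of all genes called lower. The counts for the fibroblast list and for TGF-beta and BMP signalling were close to that share. Of 29 other fibroblast and progenitor genes tested 4 fell and 0 rose, with a median change of −0.38: the actin-severing Gsn (−1.66 ± 0.38, limma adjusted p = 0.0289), the progenitor surface protein Cd34 (−0.96 ± 0.22), the growth factor Igf1 (−0.70 ± 0.16) and the collagen chain Col1a2 (−0.64 ± 0.16). With median-ratio scaling 1 of the 29 was lower. Among 7 other small leucine-rich proteoglycans, the family of Dcn, Ogn (−1.14 ± 0.18) and Podn (−1.08 ± 0.34) fell. Of 20 genes of TGF-beta and BMP signalling, which decorin and dermatopontin can modulate, the co-receptor Tgfbr3 (−0.94 ± 0.16) and the BMP target Id3 (−0.78 ± 0.15) fell and 0 rose. Of 4 hedgehog pathway genes tested, a pathway that Gpc3 can restrain, Smo (−0.59 ± 0.15) and Ptch1 (−0.46 ± 0.16) fell. Of 9 fibulins and elastic fibre genes Fbln2 (−0.65 ± 0.22) and Fbln5 (−0.52 ± 0.20) fell, and of 7 glypicans and syndecans Sdc2 (−0.66 ± 0.18) and Gpc4 (−0.64 ± 0.19) fell. With median-ratio scaling 0 genes of the hedgehog, fibulin and glypican lists were called, 1 proteoglycan was lower, and 1 signalling gene was higher and 1 lower. Of 3 CAP domain genes tested, the family of Pi16, 0 were called. Gas6, a vitamin K-dependent ligand and 1 of 3 genes tested in the list of the vitamin K cycle in which Mgp is modified, fell by 1.41 ± 0.29.

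**Figure D2:**
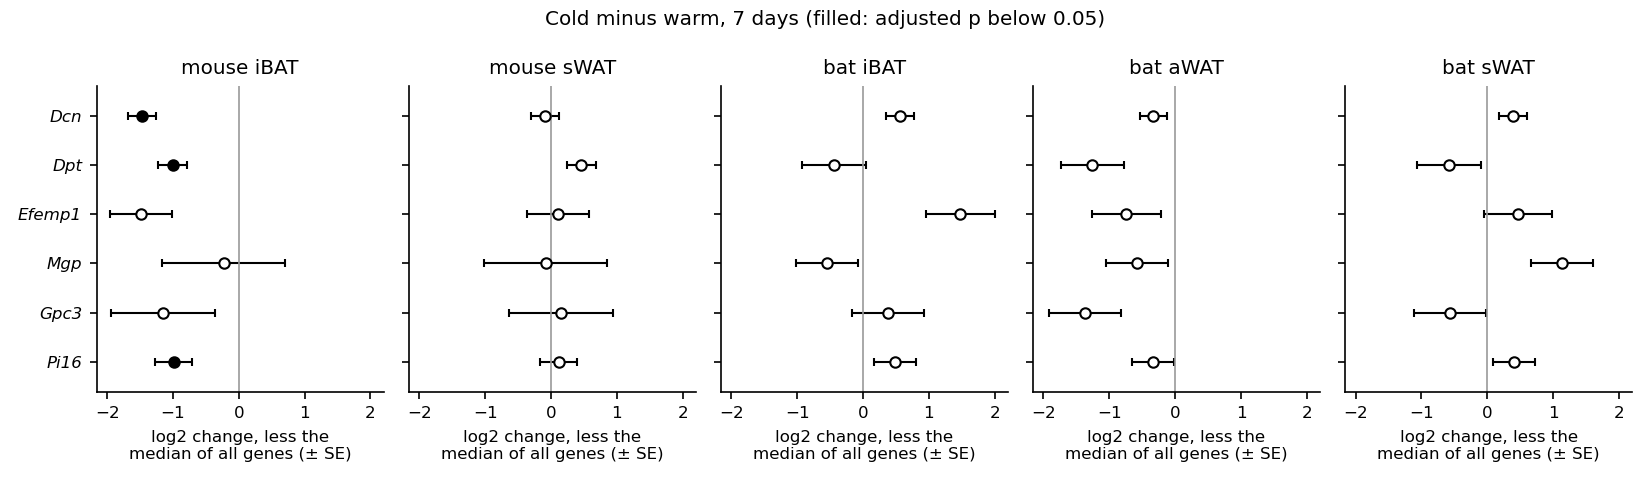
Log2 change in the cold less the median change of all genes (points) with its SE (bars) for the 6 genes in each depot, 2 libraries per group; filled points passed adjusted p below 0.05. Filled points stand only in mouse iBAT, at −1.47 for Dcn and −0.99 for Pi16, with Dpt close to Pi16.

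In mouse sWAT none of the 6 genes passed the limma test, with 33.2% of all genes called in either direction and a median shift of all genes of −0.37, and none had an unadjusted p under 0.05. Less the median, the changes ran from −0.09 ± 0.22 for Dcn to 0.46 ± 0.22 for Dpt. Before the median is taken off, Dcn stood at −0.45 (adjusted p = 0.153) and Dpt at 0.09 (adjusted p = 0.757). Without the cold female library, which leaves the cold male one, low in lymphocyte and high in muscle genes, alone in its group, Dcn (adjusted p = 0.0179) and Pi16 (adjusted p = 0.0431) were called lower before the median is taken off. Less the median they stood at −0.28 and −0.18, and a difference from the median gene was not tested. Of 29 other fibroblast and progenitor genes 0 were called (median change 0.30), and with median-ratio scaling 3 were called higher. Of the 3 CAP domain genes Glipr1 (−2.04 ± 0.60) and Glipr2 (−1.24 ± 0.36) fell, and with median-ratio scaling 0 were called.

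In the main fit, bat depots showed no called change of the 6 genes in the cold. In bat iBAT 1.94% of all genes were called in either direction, and Efemp1 had the largest value of the 6, 1.48 ± 0.52 (limma adjusted p = 0.192, unadjusted p = 0.0244). Dcn had a value of 0.56 ± 0.21 (adjusted p = 0.26) and Pi16 of 0.48 ± 0.32, and both stood above both warm libraries in each cold library. In bat sWAT, with 1.08% of all genes called, Mgp had the largest value, 1.13 ± 0.47 (adjusted p = 0.401, unadjusted p = 0.0284). Skeletal muscle genes summed to 200 and 386 FPKM in cold bat sWAT against 9.31 and 1.92 FPKM in warm bat sWAT, and their part was not tested.

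In bat aWAT, where Ucp1 was at 7180 and 2940 FPKM in the cold against 3.18 and 2.67 FPKM warm, all 6 changes were below 0 and none passed in the fit without a block, where 14.8% of all genes were called in either direction and all genes moved by a median of −0.14. Gpc3 had a value of −1.37 ± 0.55 (limma adjusted p = 0.0952) and Dpt of −1.26 ± 0.48 (adjusted p = 0.0799), and with Dcn they had an unadjusted p under 0.05. With sex as a replicate block, Dpt (adjusted p = 0.0113) and Gpc3 (adjusted p = 0.0132) were called lower. The female cold aWAT library was the lowest of the 4 aWAT libraries for all 6 genes. Without the male cold library, Dpt, Efemp1 and Pi16 were called lower (adjusted p = 0.0293 to 0.0442), and without the female one none was. The 8 macrophage genes in the table summed to 155 and 290 FPKM in cold aWAT against 458 and 272 FPKM in warm aWAT, the female cold library again being the lowest, and 0 of 8 were called. The 8 endothelial genes summed to 94.1 and 141 FPKM in cold against 220 and 184 FPKM in warm aWAT, with 3 of 8 called lower. The 4 smooth muscle and pericyte genes summed to 30.1 and 38.9 FPKM in cold against 65.1 and 58.8 FPKM in warm aWAT, with 3 of 4 called lower. The nerve and Schwann cell gene S100b changed by −3.44 ± 0.49 (limma adjusted p = 0.00205), and 1 of 5 mesothelial genes, Wt1, was lower (−0.66 ± 0.18). The part of these cells was not tested. Of 28 other fibroblast and progenitor genes, Dpp4 (−0.75 ± 0.18) and the transcription factor Osr1 (−0.74 ± 0.21) fell. Beside these counts of genes called lower, 716 of all 11025 genes were, a share close to that of the fibroblast list.

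The cold response itself was compared between depots and species. Between iBAT and sWAT of mouse the 6 cold effects differed by −0.14 to −1.58 and none passed (0.0374% of all genes called in either direction, 3 of the 6 genes with an unadjusted p under 0.05, limma), the largest being Efemp1 (−1.58 ± 0.67, adjusted p = 0.259) and Dpt (−1.44 ± 0.31, adjusted p = 0.111). A fall in iBAT alone was therefore not shown. Without the cold female sWAT library Dcn (adjusted p = 0.039) and Dpt (adjusted p = 0.0485) were called. Between bat iBAT and sWAT none passed (0.608% of all genes called, 1 of 6 with an unadjusted p under 0.05), nor between bat aWAT and sWAT (3.8% called, 2 of 6 with an unadjusted p under 0.05), and Mgp had the largest difference in both, −1.68 ± 0.66 (adjusted p = 0.341) and −1.73 ± 0.66 (adjusted p = 0.14). With a block of sex within temperature, chosen after seeing the data, Gpc3 was called lower between bat aWAT and sWAT (−0.81, adjusted p = 0.0378). Without the male cold aWAT library Dcn, Efemp1 and Pi16 were called lower in aWAT than in sWAT (adjusted p = 0.0447 to 0.048). All genes differed by a median of −0.17 and −0.19 in these bat comparisons, which share the sWAT libraries.

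In iBAT the cold effect on Dcn was 2.01 ± 0.30 higher in bat than in mouse (limma adjusted p = 0.00234 over the 9400 genes kept in both), and that on Efemp1 2.95 ± 0.76 higher (adjusted p = 0.0343). Thus 2 of 6 genes were called higher, where 3.18% of all genes were, and Pi16 missed the threshold (1.46 ± 0.45, adjusted p = 0.0548), which it passed with a pseudocount of 0.1 (adjusted p = 0.0463) and with median-ratio scaling (adjusted p = 0.0433). All genes differed by a median of 0.21 between the species. Dcn kept its call without any 1 of the 8 iBAT libraries, and Efemp1 lost it without each of them in turn (adjusted p = 0.05 to 0.138). In sWAT, where all genes differed by a median of 0.42, Dcn alone of the 6 was called, for an effect of 0.91 before the median is taken off (adjusted p = 0.0471), where 17% of all genes were called higher. Less the median its effect was 0.49 ± 0.30, with a 95% interval from −0.16 to 1.14. With median-ratio scaling it was not (adjusted p = 0.371), and the higher and lower calls of all genes were 423 and 692, against 1594 and 430 as deposited. Without 1 library the sWAT value for Dcn less the median ran from 0.28 to 0.70, and without the cold female mouse sWAT library alone it stayed called (adjusted p = 0.008). Mgp was called there without the male warm mouse sWAT library (adjusted p = 0.032), where its effect less the median was 2.56.

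In warm mice, iBAT was lower than sWAT by 1.27 ± 0.22 for Dcn (limma adjusted p = 0.00205), 2.19 ± 0.22 for Dpt (adjusted p = 0.00123), 1.94 ± 0.47 for Efemp1 (adjusted p = 0.00571) and 1.64 ± 0.28 for Pi16 (adjusted p = 0.00217), beside a median of −0.57 over all genes. In cold mice the differences were −2.68 ± 0.22 for Dcn, −3.69 ± 0.22 for Dpt, −3.58 ± 0.47 for Efemp1 and −2.79 ± 0.28 for Pi16 (adjusted p of at most 0.00427), beside a median of −0.47. In each case 4 of 6 genes were called lower, where 27.4% of all genes were called lower in cold and 48% in warm mice. These calls held without any 1 of the libraries compared, including the cold male sWAT library.

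Mgp and Gpc3 were not called between mouse depots in the main fit. In warm mice Mgp stood at −0.15 ± 0.93 and Gpc3 at −0.25 ± 0.79 (neither passed, limma adjusted p = 0.522 and 0.392), with 95% intervals from −2.38 to 2.09 and from −2.15 to 1.65. In cold mice Gpc3 stood at −1.59 ± 0.79 (adjusted p = 0.0888), and without the male cold sWAT library, whose Gpc3 was low, it was called (adjusted p = 0.0387). It was also called with sex as a replicate block (adjusted p = 0.0242). The same held with a block of sex within temperature, a fit chosen after seeing the data (adjusted p = 0.0442). Under median-ratio scaling the lower share of all calls in these depot comparisons was smaller, with 1015 lower beside 1281 higher in cold mice, against 2925 and 246 as deposited, and 2294 lower beside 2422 higher in warm mice, against 5128 and 1141. The 4 members kept their calls. Of 29 other fibroblast and progenitor genes, 23 were lower and 0 higher in cold iBAT (median −1.65), and 22 lower and 2 higher in warm iBAT (median −1.25). Among them were Thy1, a surface protein of progenitors (−4.10 ± 0.54 warm), and Dpp4 (−2.44 ± 0.30 warm), while Dlk1, a marker of preadipocytes, was higher in warm iBAT (2.07 ± 0.28). Of 7 other small leucine-rich proteoglycans 5 were lower in cold and 5 in warm iBAT, among them Ogn (−2.54 ± 0.18 cold), and of 9 fibulins and elastic fibre genes 6 and 6, led by Fbln1 (−1.95 ± 0.38 cold). With median-ratio scaling 1 of these 9 was lower in warm iBAT. The CAP domain genes Glipr1 (−3.08 ± 0.60) and Glipr2 (−2.56 ± 0.36) were lower in warm iBAT. The 8 macrophage genes were lower too, 8 of 8 at both temperatures, and the 6 B lymphocyte genes 6 of 6 in warm mice. Of 8 endothelial genes 4 were higher and 1 lower in warm iBAT, and 0 higher and 4 lower in cold iBAT. Of 4 smooth muscle and pericyte genes 2 were higher and 1 lower in warm iBAT, and 0 higher and 1 lower in cold iBAT. The part of these cells was not tested.

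In warm bats 5 of the 6 genes were lower in iBAT than in sWAT, where 12.9% of all genes were. Gpc3 differed most, by −5.46 ± 0.55 (limma adjusted p = 0.000186), and by −6.13 to −4.78 without any 1 library. Dpt differed by −3.91 ± 0.48 (adjusted p = 0.000475), Efemp1 by −3.11 ± 0.52 (adjusted p = 0.00209), Pi16 by −2.67 ± 0.32 (adjusted p = 0.000423) and Dcn by −2.48 ± 0.21 (adjusted p = 6.31e-05). Mgp did not pass, at 0.78 ± 0.47 (adjusted p = 0.304). In cold bats the same 5 genes were called lower, where 26.7% of all genes were, from −2.08 ± 0.52 for Efemp1 to −4.50 ± 0.55 for Gpc3, beside a median of all genes of −0.26. Efemp1 lost its cold call without the male cold sWAT library (adjusted p = 0.0513), and Mgp, at −0.88 ± 0.47 (adjusted p = 0.0786), gained one without the female cold sWAT library (adjusted p = 0.0361). Here 17 of 28 other fibroblast and progenitor genes were lower and 0 higher in cold iBAT (median −1.41). In warm iBAT 17 were lower and 1 higher (median −1.04). The collagen chains Col1a1 (−3.01 ± 0.40 warm) and Col1a2 (−2.84 ± 0.47 warm) and the guidance factor Sema3c (−3.86 ± 0.57 warm) were among the lower ones. Of 8 fibulins and elastic fibre genes 8 were lower in cold and 5 in warm iBAT, led by Fbln2 (−1.93 ± 0.24 warm), and among the small leucine-rich proteoglycans Podn was lower (−2.49 ± 0.25 warm). Of 7 glypicans and syndecans Gpc1 (−3.40 ± 0.65) and Sdc1 (−1.27 ± 0.35) were lower in warm iBAT. In cold iBAT 3 of these 7 were lower and 1 higher. Of 3 CAP domain genes 2 were lower and 1 higher at both temperatures. The macrophage genes were lower in 8 of 8 cases in cold and 6 of 8 in warm iBAT, and the 5 skeletal muscle genes tested in 5 of 5 cases in the cold; the part of these cells was not tested.

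Bat iBAT was also lower than bat aWAT, in warm bats for 6 of 6 genes, where 12.4% of all genes were called lower and all genes differed by a median of −0.15. Mgp (−3.78 ± 0.47, limma adjusted p = 0.000638), Gpc3 (−3.46 ± 0.55), Efemp1 (−3.12 ± 0.52), Dpt (−2.41 ± 0.48), Pi16 (−1.85 ± 0.32) and Dcn (−1.56 ± 0.21) all passed, and they did so without any 1 library. Leaving out 1 library moved Mgp between −4.39 and −3.16 and Gpc3 between −4.24 and −2.69. In cold bats Mgp was called (−3.71 ± 0.47, adjusted p = 0.00527), where 0.707% of all genes were called lower, and it lost its call without the male cold aWAT or the male cold iBAT library (adjusted p of at most 0.0671). The other 5 genes stood at −0.65 to −1.68 in the cold, and 5 of the 6 had an unadjusted p under 0.05. Pi16 was called without the female cold aWAT library (adjusted p = 0.0261). With the block of sex within temperature Gpc3 (adjusted p = 0.00299) and Dpt (adjusted p = 0.0245) were called in cold bats too. Both were also called with sex as a replicate block (adjusted p = 0.0327 and 0.0257). The mesothelial genes were lower in iBAT in 5 of 5 cases in cold (median −3.53) and 5 of 5 in warm bats (median −3.72), and the macrophage genes in 0 of 8 in cold and 6 of 8 in warm bats, and the part of these cells was not tested. The comparisons of iBAT with aWAT and with sWAT share the iBAT libraries.

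**Figure D3:**
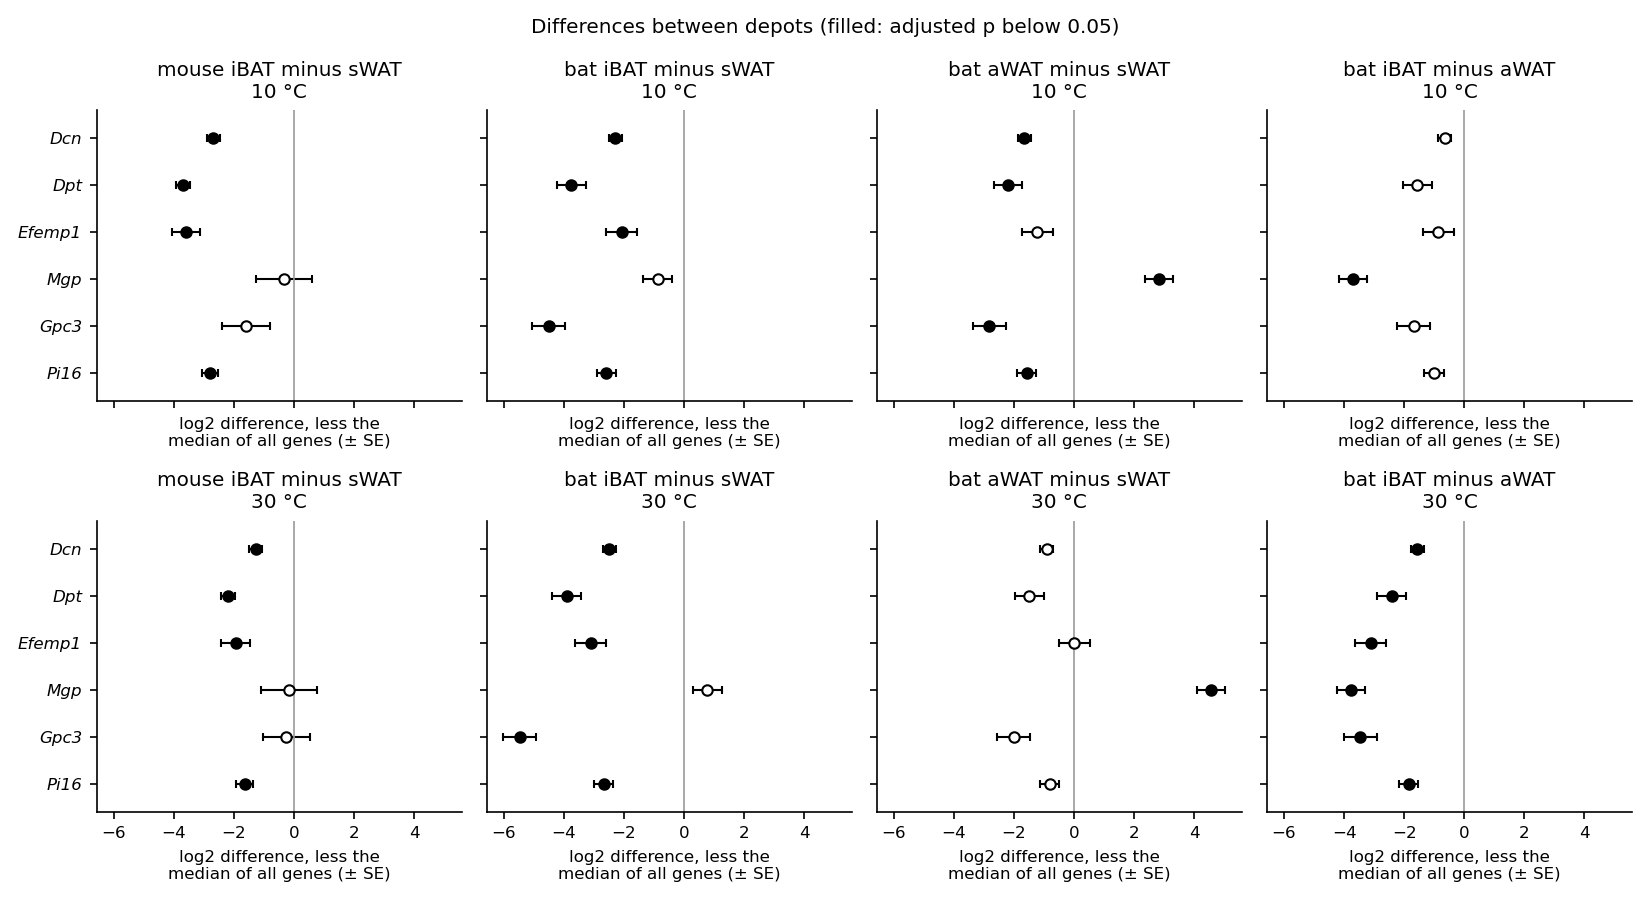
Log2 difference between depots less the median of all genes (points) with its SE (bars), in cold animals (top) and warm animals (bottom), 2 libraries per group; filled points passed adjusted p below 0.05. Mgp stands at 2.82 (cold) and 4.56 (warm) between bat aWAT and sWAT, where the other 5 genes stand at 0.01 or below, and Gpc3 at −5.46 between warm bat iBAT and sWAT.

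In warm bats aWAT held 4.56 ± 0.47 more Mgp than sWAT on the log2 scale (limma adjusted p = 0.00136), 25 times as much on the FPKM + 1 scale, where 0.689% of all genes were called higher. Gpc3 (−2.01 ± 0.55, adjusted p = 0.267), Dpt (−1.50 ± 0.48, adjusted p = 0.418), Dcn (−0.92 ± 0.21, adjusted p = 0.15) and Pi16 (−0.82 ± 0.32, adjusted p = 0.62) did not pass, and 5 of the 6 genes had an unadjusted p under 0.05. Gpc3 was called lower as well with sex as a replicate block (adjusted p = 0.0229) and with the block of sex within temperature (adjusted p = 0.00204). In cold bats Mgp was 2.82 ± 0.47 higher in aWAT (adjusted p = 0.00323), where 10.2% of all genes were called higher, and both calls held without any 1 library. Dcn (−1.66 ± 0.21, adjusted p = 0.000439), Pi16 (−1.58 ± 0.32, adjusted p = 0.00595), Gpc3 (−2.83 ± 0.55, adjusted p = 0.00536) and Dpt (−2.20 ± 0.48, adjusted p = 0.00903) were lower in cold aWAT, where 11.5% of all genes were called lower. Dpt lost its call without the male cold sWAT or the female cold aWAT library (adjusted p of at most 0.0829), and Gpc3 without the female cold aWAT library (adjusted p = 0.0557). Efemp1 did not pass in cold (−1.22 ± 0.52, adjusted p = 0.0965) or warm bats (0.01 ± 0.52). In the cold it was called lower with sex as a replicate block (adjusted p = 0.0318). It was called there with the block of sex within temperature too (adjusted p = 0.0301). Without the male cold aWAT library its value in the cold was −2.01.

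Between bat aWAT and sWAT, 0.689% of all genes were called higher in warm bats, and 10.2% higher and 11.5% lower in cold bats. Other fibroblast and progenitor genes were called in both directions, as the 6 genes were in the cold. In warm bats 4 of 28 were higher in aWAT and none lower, with a median of −0.39: Osr1 (2.19 ± 0.21), Tcf21, a transcription factor of visceral fibroblasts in mouse (1.84 ± 0.23), Dpp4 (1.82 ± 0.18) and Ebf2, a factor of brown fat progenitors in mouse (1.55 ± 0.24). In cold bats 4 were higher and 11 lower (median −0.71), the lower ones led by Gsn (−2.50 ± 0.38), Col1a2 (−2.45 ± 0.47) and Col1a1 (−2.42 ± 0.40). In the cold 7 of 8 macrophage genes and 5 of 5 skeletal muscle genes were lower in aWAT too, and their part was not tested. No other gene of the vitamin K list was called between aWAT and sWAT, of 3 tested.

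Mesothelium, the cell layer that covers abdominal organs and fat, was tracked by 5 genes in the table. They summed to 41.1 and 86.3 FPKM in cold and 74.5 and 116 FPKM in warm bat aWAT, to 2.87 and 13.7 FPKM in cold and 2.81 and 3.67 FPKM in warm sWAT, and to at most 2.14 FPKM in bat iBAT. All 5 were higher in aWAT than in sWAT at both temperatures. Msln, which encodes the mesothelial surface protein mesothelin, was at 4.25 FPKM in the male cold sWAT library and at 0.211 to 0.319 FPKM in the other bat sWAT libraries, and the same male library had the highest Mgp of sWAT, 19.5 FPKM. The part of these cells in the Mgp difference was not tested.

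**Figure D4:**
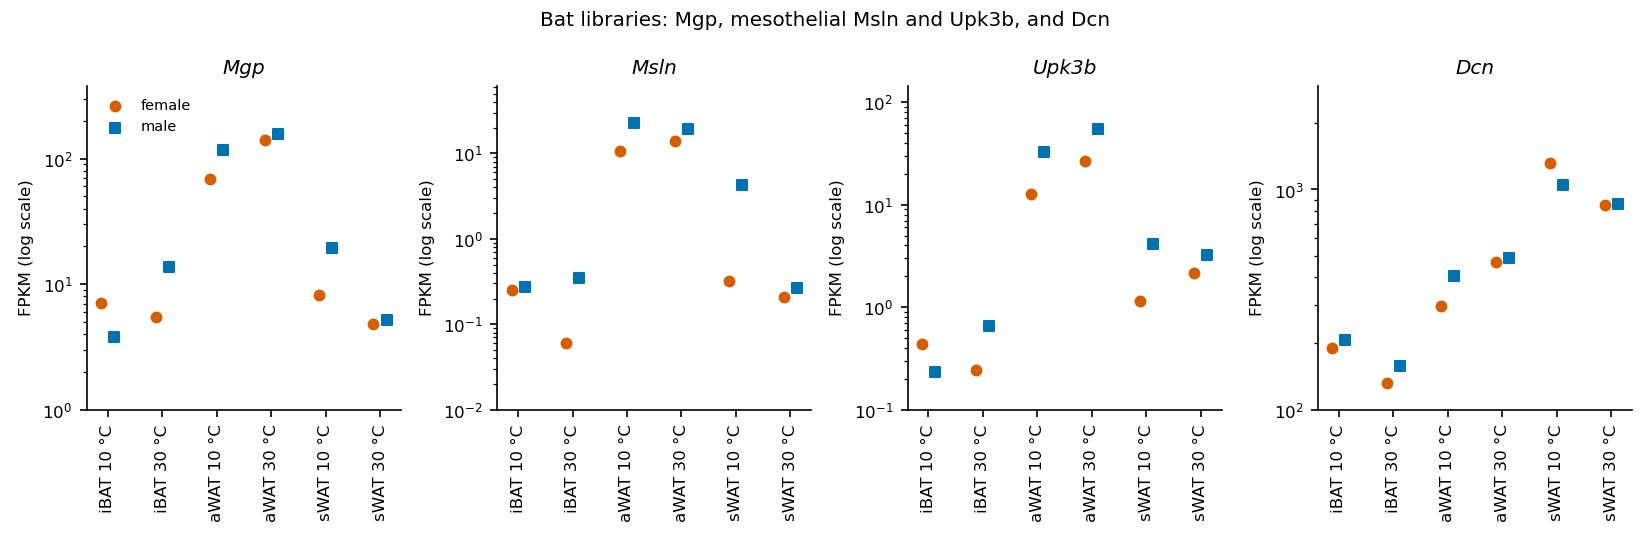
FPKM on log scales of Mgp, of the mesothelial genes Msln and Upk3b and, for contrast, of Dcn in the 12 bat libraries; circles are female and squares male libraries. Mgp, Msln and Upk3b are highest in the 4 aWAT libraries (Mgp 69.05 to 157 FPKM, Msln 10.7 to 22.8 FPKM), and Dcn is highest in sWAT.

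Genes of like pattern were sought by the distance between centred log2(FPKM + 1) values over the libraries of a species, among genes with a mean of at least 5 FPKM. This is a description, since all points share the depot differences. Dcn and Pi16 were close to each other in both species: Pi16 was the second nearest gene to Dcn in mouse (distance 0.246 over 8 libraries) and in bat (0.237 over 12 libraries), and Dcn was the nearest to Pi16 in bat. The ratio of Pi16 to Dcn FPKM stayed within 0.0792 to 0.138 in mouse and 0.171 to 0.330 in bat libraries. That of Gpc3 to Dcn spanned 0.0182 to 0.0986 in mouse and 0.0209 to 0.455 in bat libraries. In mouse, Ogn was nearest to Dcn (0.230), C1rb to Pi16 (0.159), Clec10a to Dpt (0.287) and Mmp2 to Efemp1 (0.310).

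In bat, Mgp lay far from the other 5 genes. Among the candidates ranked by nearness to bat Mgp, 6453 genes in all, Efemp1 came at 3651, Pi16 at 5754, Dcn at 5876, Dpt at 6297 and Gpc3 at 6386. The nearest to bat Mgp were Msln (0.453), Lztfl1 (0.509) and Upk3b (0.686), of which Msln and Upk3b are in the mesothelial list. In mouse, Gpc3 was the 8th nearest to Mgp (0.531), after Fads2 (0.330), Slc39a14 (0.362) and Mpzl1 (0.379) in the leading places. For Gpc3 the nearest were Gstt3 (0.408) in mouse and Cckbr (0.546), with Dpt next (0.568), in bat. Nearest to bat Dpt was Sgca (0.361), and to bat Dcn Fkbp10 (0.202).

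Sex was compared after the values had been seen, as the female against the male library across the groups of a species. In mouse, Mgp was higher in the female library in 4 of 4 groups, by 1.72 to 7.00 times, and Gpc3 in 4 of 4 groups, by 1.43 to 4.98 times. Across the groups the differences were 1.37 ± 0.33 for Mgp and 1.08 ± 0.33 for Gpc3, and Efemp1 was higher in females in 4 of 4 groups as well (0.58 ± 0.21). None passed (limma adjusted p = 0.375 for each, unadjusted p = 0.00528, 0.0124 and 0.0177), with 0.00936% of all genes called in either direction. The epithelial genes above were highest in the same female sWAT libraries: Epcam was at 33.1 FPKM in the cold and 64.6 FPKM in the warm female library against 0.051 and 1.03 FPKM in the male ones. In iBAT, where Mgp was also higher in females, Epcam was at 0.188 and 3.32 FPKM in female and 0 and 0.029 FPKM in male libraries. The part of epithelial cells was not tested.

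In bat the Gpc3 difference ran the other way. The female library was lower in 6 of 6 groups for Gpc3 (0.328 to 0.846 times the male level) and in 6 of 6 groups for Dpt (0.413 to 0.879 times), with differences of −0.84 ± 0.18 and −0.73 ± 0.16. In mouse, Dpt stood at −0.31 ± 0.14, with the female library higher in 1 of 4 groups. Neither passed (limma adjusted p = 0.144 for each, unadjusted p = 0.00102 and 0.00122), with 0.0454% of all genes called in either direction. None of the 6 genes was called in either species without any 1 library or with median-ratio scaling. Age and reproductive state are not in the labels, and their part was not tested.

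**Figure D5:**
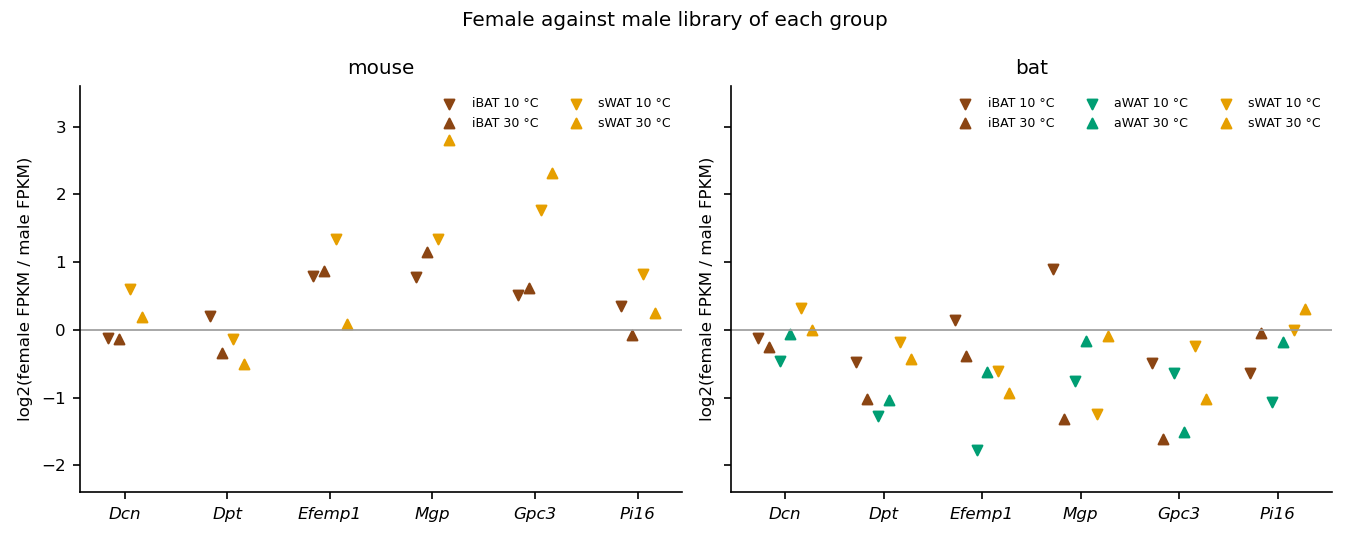
Log2 ratio of female to male FPKM in each group for the 6 genes, mouse left and bat right; colours mark depots, triangles pointing down are cold and up are warm groups. In mouse, Mgp and Gpc3 are above 0 in 4 of 4 groups, and in bat, Gpc3 and Dpt are below 0 in 6 of 6 groups.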

How the data were processed

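Per the labels' protocols, RNA was isolated with a kit for lipid-rich tissue and made into Illumina libraries, and per the submitters' processing notes CASAVA 1.8 was used. For the aligner, the genome build, strand use and the way bat reads received mouse identifiers, the sources used here give nothing. The deposited table holds FPKM, which the authors computed, for 14871 genes in 20 libraries, and 14723 identifiers had a symbol. Depth is known only relative to other libraries, from the commonest ratio of their low values, and no interval for counting error was computed.

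Values were taken as log2(FPKM + 1), with a pseudocount of 1, for genes that reached 1 FPKM in 2 or more libraries of their species. All groups of a species were fitted together with limma 3.58.1 (R 4.3.3), with 1 coefficient per group of 2 libraries, and p-values were adjusted by the Benjamini-Hochberg method over all genes. Printed changes are less the median of all genes in the comparison, while p-values test the change before that. Species were compared in a fit of both over 9400 genes. The 18 planned comparisons were joined by 2 of sex, added after seeing the data. The labels do not say how many animals each library holds, so p-values measure only the spread between these libraries. No 2 libraries held identical values. The fit was tested on simulated data in which all libraries were independent, so deviations shared between depots were not covered.

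The members and gene lists were chosen with earlier results of these data known. Genes are named by rule: the 6 members, up to 4 genes with the largest change among the called of each list in a comparison, and the 3 genes nearest in pattern to each member. Marker genes whose levels are given beside a result were chosen from the lists after their values were seen. Alternatives were a pseudocount of 0.1, no filter, median-ratio scaling, sex as a replicate block, leaving out each library and, added later, a block of sex within temperature.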

Additional observations from a re-analysis of the deposited data

Results flagged for a closer look

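The effect of cold differed between the species for 2 of the 6 genes in iBAT and 1 in sWAT, by the limma test of the difference itself. In iBAT, Dcn fell in cold mice and did not pass the test in cold bats, a difference of bat minus mouse of 2.01 on the log2 scale, less the median of all genes (95% interval 1.36 to 2.66, adjusted p = 0.00234 for the difference before that), and Efemp1 differed by 2.95 (95% interval 1.32 to 4.59, adjusted p = 0.0343). The Dcn value stayed called under every alternative run for it, and that of Efemp1 was lost on leaving out any 1 library. The bat row of Efemp1 is the one that D830030K20Rik follows. In sWAT, Dcn differed by 0.91 before the median difference of all genes is taken off (adjusted p = 0.0471) and by 0.49 after it, with a 95% interval from −0.16 to 1.14. This call was lost with median-ratio scaling and with a pseudocount of 0.1. Bat values rest on mouse identifiers, and what that does to a cold effect was not tested.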

How the results depend on the processing

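Of the counts of members called, most were within 1.5 times under each alternative. Replicate numbers (female 1, male 2) do not pair the samples by the labels. Deviations of female from male correlated between depots at 0.26 to 0.55 in bat and 0.37 to 0.41 in mouse at the same temperature. Across temperatures they correlated at −0.19 to 0.05 and −0.02 to 0.47. Whether depots of 1 sex and temperature share an animal was not tested, and the main fit treats all libraries as independent. With sex as a replicate block, the members called in cold against warm bat aWAT were 2 in place of 0 (Dpt, adjusted p = 0.0113, and Gpc3, 0.0132), in bat aWAT against sWAT (warm) 2 in place of 1 and in bat iBAT against aWAT (cold) 3 in place of 1 (Dpt, adjusted p = 0.0257, and Gpc3, 0.0327, added). Efemp1 in cold mouse iBAT (0.0226) and Pi16 in the iBAT cold effect of bat minus mouse (0.0345) were called as well. So were Gpc3 in mouse iBAT against sWAT (cold, 0.0242) and Efemp1 in bat aWAT against sWAT (cold, 0.0318). A block of sex within temperature was added after seeing the data. With it, bat aWAT against sWAT (warm) gave 2 members called and bat iBAT against aWAT (cold) gave 3. The cold effect of bat aWAT minus sWAT gave 1 in place of 0. The sWAT cold effect of bat minus mouse had 0 called in place of 1 with median-ratio scaling and with a pseudocount of 0.1, and no filter changed no call of a member.

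Leaving out 1 library gave 0 to 0 members called in place of 3 for cold against warm mouse iBAT, 0 to 2 for mouse sWAT and 0 to 3 for bat aWAT in place of 0, 0 to 2 for the cold effect of mouse iBAT minus sWAT and 0 to 3 for that of bat aWAT minus sWAT in place of 0, 3 to 6 in place of 5 for bat aWAT against sWAT (cold), 0 to 2 in place of 1 for bat iBAT against aWAT (cold), 1 to 1 in place of 2 for the iBAT and 0 to 1 in place of 1 for the sWAT cold effect of bat minus mouse. Fewer libraries leave fewer degrees of freedom. No called value of a member turned its sign under any alternative.

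Counts of all genes called differed by over 1.5 times in these cases. With a pseudocount of 0.1 they were 101 against 214 (bat iBAT in the cold) and 229 against 419 (cold effect of bat aWAT minus sWAT). For the iBAT cold effect of bat minus mouse they were 589 with no filter and 598 with sex as a block, against 390. With sex as a block the cold effect of mouse iBAT minus sWAT had 2 against 4. Median-ratio scaling gave 1857 against 3545 (mouse sWAT in the cold), 1115 against 2024 (sWAT cold effect of bat minus mouse), 0 against 1 (mouse sex) and 9 against 5 (bat sex). With the block of sex within temperature they were 1281 against 419 (cold effect of bat aWAT minus sWAT), 114 against 67 (that of bat iBAT minus sWAT), 37 against 4 (that of mouse iBAT minus sWAT), 3618 against 2391 (bat aWAT against sWAT, cold), and 268 against 100 and 3420 against 2191 (bat iBAT against aWAT, cold and warm). Median-ratio scaling also moved the split of higher and lower calls: 1130 and 727 against 717 and 2828 in mouse sWAT in the cold, 140 and 55 against 118 and 96 in bat iBAT, 1047 and 460 against 918 and 716 in bat aWAT, 2058 and 2001 against 1432 and 2940 between bat iBAT and sWAT in the cold, 1047 and 999 against 828 and 1363 between warm bat iBAT and aWAT, 2 and 2 against 1 and 3 for the cold effect of mouse iBAT minus sWAT, and 183 and 201 against 299 and 91 for the iBAT cold effect of bat minus mouse. The causes were not tested. FPKM hold no read counts, so what depth limits in low genes was not assessed.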
